A study of Mus musculus with 27 samples.

Results

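The expression of 10 genes of extracellular matrix turnover was followed through osteoblast differentiation: the matrix metalloproteinases (MMPs) Mmp2, Mmp3, Mmp10, Mmp11, Mmp13 and Mmp14, and the tissue inhibitors of metalloproteinases (TIMPs) Timp1, Timp2, Timp3 and Timp4. They were chosen by gene name, with earlier results of these data known, and are 10 of the 37991 genes that were quantified. The cells came from the calvariae (skull vault bones) of neonatal C57BL/6J-Col3.6 CFP mice, aged 5 to 9 days, which carry cyan fluorescent protein (CFP) under a fragment of the collagen type I promoter. After 4 days of growth they were sorted on CFP and cultured with ascorbic acid and 4 mM β-glycerol phosphate, a medium that supports matrix deposition and mineralization, and RNA was taken every other day from day 2 to day 18. Every group shared this strain, sort and medium, and the 9 groups differed only in day, so that no untreated or undifferentiated arm was compared and day cannot be told apart from time in culture. The Col3.6 fragment marks cells of the osteoblast lineage broadly, and the sort preceded the time course, so the cells of later days were not sorted again.

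MMPs are zinc-dependent proteases that are made as inactive precursors and cut components of the extracellular matrix. In bone, Mmp14 is anchored in the cell membrane and activates the secreted gelatinase Mmp2 with the help of Timp2, while Mmp13 is the collagenase that rodent osteoblasts secrete to cut fibrillar collagen. TIMPs bind the active site of MMPs and block them, and Timp3 differs from the others in that it is held in the matrix and also inhibits several ADAM and ADAMTS proteases. RNA levels do not give the amount of active enzyme, since activation and inhibition take place in the protein.

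Each time point had 3 profiles, all with the same barcode and each from its own sequencing lane. Their counts agreed within sampling noise on every day (chi-square per degree of freedom 0.999 to 1.02, chi-square tests on counts), so they were summed and counted as 1 sample. The study describes the 3 profiles as triplicate samples, but they were treated here as 1 library per day, so that no biological replicate of any day entered the tests. The p-values below set the size of the change in day against the scatter of the 9 libraries around the fitted line or curve. A bend in the course counts as scatter around a straight line. The libraries held between 22470147 counts on day 10 and 62009115 on day 12, with a median of 43146772. The osteoblast label was checked on 11 markers. Of these, 8 passed the straight line in day described below as higher later, against 28.3% of all genes tested. The 11 markers summed to 3002 TPM (transcripts per 1000000) at day 2 and 9604 TPM at day 18. Most of that sum was collagen type I, with Col1a1 at 1526 and 4263 TPM and Col1a2 at 983 and 4114 TPM at days 2 and 18. Bglap, which encodes the late osteoblast protein osteocalcin, stood at 1.24 and 208 TPM on these days. Alpl, Spp1 and Sp7 did not pass the line, and Sp7, a transcription factor of osteoblast commitment, was at 32.3, 2.77 and 10.6 TPM at days 2, 8 and 18. Markers of other cells moved over the same days. The summed level of 7 monocyte and macrophage markers was 24.1 TPM at day 2 and 2014 TPM at day 18. Most of that sum was Lyz2, at 19.9 and 1855 TPM. Of the 7 markers, 6 passed the line as higher, against 28.3% of all genes tested. The summed level of 5 adipocyte markers was 7.44 and 407 TPM on these days. The osteoclast markers summed to 42.8 and 223 TPM, of which Ctsk was 36.5 and 193 TPM, but Calcr and Tm7sf4 were at 0 on all days. In bulk RNA, fewer cells of a type and less RNA per cell cannot be told apart, and the part that these other cells had in the levels of MMPs and TIMPs was not tested.

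Levels are given as TPM, which is per transcript length and allows genes to be compared, after scaling each profile to the same upper quartile. Changes were tested on the counts with edgeR's quasi-likelihood test and Benjamini-Hochberg adjustment over all genes, with 0.05 as the threshold. A straight line in day gave the fitted log2 change from day 2 to day 18, and a natural spline with 3 degrees of freedom tested for a change of any smooth shape. Of the 10 genes, 9 had enough counts for the tests, and Mmp10 did not. In the straight line, 5 of the 9 were higher later (Mmp2, Mmp3, Mmp11, Mmp14 and Timp4), against a background of 28.3% of the 15659 genes tested, and 1 was lower later (Timp1), against 26.1%. The lines of Mmp13, Timp2 and Timp3 did not pass the test. The median fitted log2 change of the 9 genes was 1.17, beside 0.05 over all genes. This median is the value of Mmp13, whose line did not pass. In the spline, 9 of 9 passed, against 57.5% of 16256 genes. Because the genes were chosen with earlier results of these data known, these shares describe the list and do not test it. The spread of the 10 genes was wide, and the plot of their levels by day shows that they followed several different courses.

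**Figure D1:**
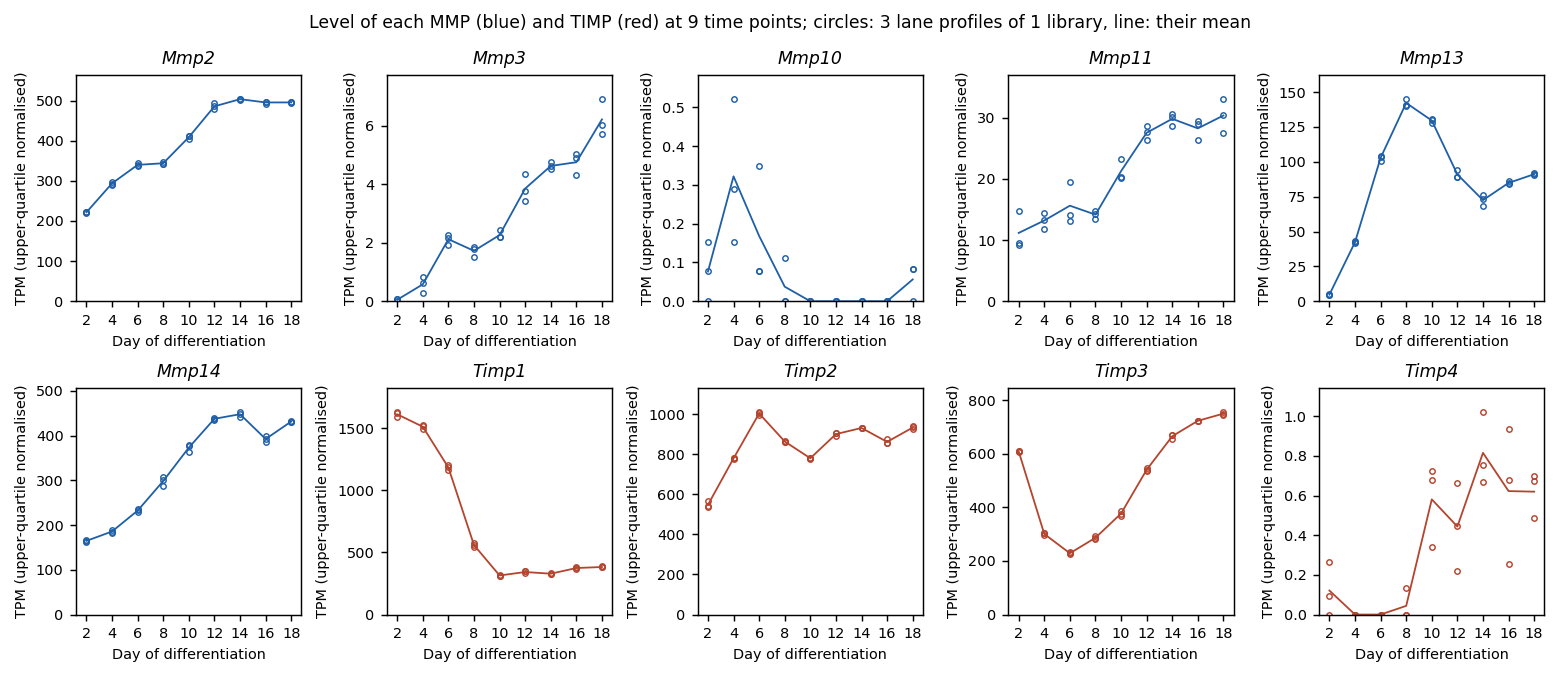
Level of each of the 10 genes in TPM (vertical axis, each panel on its own scale from 0) against the day of differentiation, with circles for the 3 lane profiles of a day and a line through their mean. Mmp2, Mmp11 and Mmp14 were lowest on day 2, Mmp13 was highest on day 8, Timp1 was lowest on day 10 and Timp3 on day 6, while Mmp10 and Timp4 stayed below 1 TPM.

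Mmp2, the gelatinase that degrades denatured collagen and basement membrane collagen, was the most abundant MMP of the 6 on every day. Its level was 222, 294 and 340 TPM at days 2, 4 and 6, 344, 409 and 486 TPM at days 8, 10 and 12, and 504, 495 and 495 TPM at days 14, 16 and 18. The days from 12 to 18 thus lay close together, and all of them were above the days from 2 to 10. Mmp2 rose by a fitted log2 change of 1.04 (SE 0.15, n = 9 libraries, edgeR adjusted p = 0.000322), and the line passed the test in all 9 fits that left out a day. Day 18 stood at 2.23 times the TPM of day 2.

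Mmp14, the membrane protease that activates Mmp2, was likewise higher on later days. Its level was 165, 186 and 232 TPM at days 2, 4 and 6, 299, 373 and 438 TPM at days 8, 10 and 12, and 448, 392 and 432 TPM at days 14, 16 and 18. Mmp14 rose by a fitted log2 change of 1.42 (SE 0.24, n = 9 libraries, edgeR adjusted p = 0.000678), and day 18 stood at 2.62 times the TPM of day 2. Across the 9 days the correlation of log2 levels between Mmp2 and Mmp14 was 0.965. This is a description over 9 points that share the same libraries, and of 7613 genes 1293 reached a correlation of 0.9 with Mmp2 and 1193 with Mmp14. The order of Mmp2 above Mmp14 held on each of the 9 days.

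Mmp13, the collagenase, had the largest ratio of highest to lowest level among the genes with at least 1 TPM on all days. Its level was 4.76, 42.4 and 103 TPM at days 2, 4 and 6, 142, 130 and 91.0 TPM at days 8, 10 and 12, and 72.5, 84.9 and 91.1 TPM at days 14, 16 and 18. Day 2 stood apart from all later days, and the levels of days 8 and 10 were above those of the days on either side. That ratio was 29.9. The spline passed the test (edgeR adjusted p = 1.45e-06, n = 9 libraries), while the straight line did not (log2 change 1.17, SE 1.2, adjusted p = 0.438). Without day 2 the fitted line was at -0.071 (adjusted p = 0.935). Days 8 and 10 were also the libraries with the fewest counts, and the part of depth in the higher levels of these days was not tested. Without both days the spline still passed (adjusted p = 5.08e-06), which does not bear on the peak. The spline also passed in all 9 fits that left out a single day, including the fit without day 2. Mmp13 had 331 counts on day 2 and between 2856 and 7809 on the other days, so counting error was small beside these differences.

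The genes of the stromelysins Mmp3 and Mmp10, which cut proteoglycans, fibronectin and the precursors of other MMPs, lie beside Mmp13 in a cluster of 10 MMP genes that spans 427072 bases of chromosome 9 (NCBIM37, from Mmp13 at 7272514 to Mmp7 at 7699585). Their promoters are shown because these neighbours share a short motif close to the gene start. Their levels differed widely, and the part of the motif in them was not tested. RefSeq promoter windows (GRCm38.p6) were matched for 9 of the 10 genes, all but Mmp2, and the 250 bases before each start were searched on both strands. The AP-1 heptamer TGANTCA, the site bound by Fos and Jun proteins, was present in Mmp3, Mmp10 and Mmp13, at 46, 63 and 35 bases before the start, and in none of the other 6. Of all 32851 promoter windows, 6.75% held it. The RUNX motif ACCACA, or TGTGGT on the other strand, was present in Mmp13 and Mmp14, at 118 and 114 bases before the start, and in 14.0% of all windows. These matches are letters in a window and do not show binding. The 150 bases before the start of the 3 clustered genes are printed below, all on the plus strand from 5′ to 3′, with AP-1 and RUNX matches in capitals. They are chr9:7272364-7272513 for Mmp13, chr9:7445672-7445821 for Mmp3 and chr9:7502192-7502341 for Mmp10.
Mmp13: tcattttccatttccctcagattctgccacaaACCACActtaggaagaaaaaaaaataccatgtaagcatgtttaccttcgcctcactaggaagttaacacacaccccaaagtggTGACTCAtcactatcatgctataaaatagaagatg
Mmp3: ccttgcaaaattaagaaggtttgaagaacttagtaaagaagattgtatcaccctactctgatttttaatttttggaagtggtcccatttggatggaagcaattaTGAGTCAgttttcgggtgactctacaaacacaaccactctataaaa
Mmp10: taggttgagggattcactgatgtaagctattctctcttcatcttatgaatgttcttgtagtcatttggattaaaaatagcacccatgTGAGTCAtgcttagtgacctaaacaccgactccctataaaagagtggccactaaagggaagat

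Mmp3 was low throughout. Its level was 0.0510, 0.579 and 2.12 TPM at days 2, 4 and 6, 1.73, 2.27 and 3.86 TPM at days 8, 10 and 12, and 4.63, 4.76 and 6.23 TPM at days 14, 16 and 18. Behind these stood 2 counts at day 2, 25 at day 4 and between 52 and 254 on later days. Each day from 12 to 18 was above each day from 2 to 10. Mmp3 rose by a fitted log2 change of 3.92 (SE 0.85, n = 9 libraries, edgeR adjusted p = 0.00285). In counts per 1000000 (CPM) the ratio of day 18 to day 2 was 121, with a 95% counting interval from 33.1 to 1003 that reflects the 2 counts of day 2.

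Mmp10, the neighbour with the same heptamer TGAGTCA, was close to the limit of detection, with 26 counts over the whole series. It had 3, 13 and 7 counts at days 2, 4 and 6, a single count (1) at day 8, 0 from day 10 through day 16, and 2 at day 18. The counts thus lay mainly on days 2 to 6. A count of 0 allows up to 0.134 CPM on day 10 and 0.0484 CPM on day 12 (floor of 3 counts, counting error only), and day 4 stood at 0.307 CPM. Mmp10 was left out of the tests by the filter on low counts. When every gene with at least 1 count was kept, its line had a log2 change of -4.14 (edgeR adjusted p = 0.0910) and its spline passed the test (adjusted p = 0.00828).

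Mmp11, also named stromelysin 3, differs from the other stromelysins in being activated inside the cell by furin. Its level was 11.2, 13.2 and 15.6 TPM at days 2, 4 and 6, 14.2, 21.3 and 27.6 TPM at days 8, 10 and 12, and 29.8, 28.3 and 30.4 TPM at days 14, 16 and 18. The levels of days 12 to 18 were close together and above all earlier days. Mmp11 rose by a fitted log2 change of 1.71 (SE 0.21, n = 9 libraries, edgeR adjusted p = 0.000114). The gene has 6 annotated transcripts, and its TPM varied between the lanes of a day by a median of 8.33%, against 0.577% for Mmp2 with 1 transcript. Furin, its activator, was between 21.3 and 30.6 TPM.

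Among the inhibitors, Timp1 fell. Its level was 1613, 1512 and 1183 TPM at days 2, 4 and 6, 559, 315 and 342 TPM at days 8, 10 and 12, and 329, 375 and 383 TPM at days 14, 16 and 18. The lower levels were reached by day 10, and the days from 10 to 18 lay between 315 and 383 TPM, below all earlier days. Timp1 changed by a fitted log2 change of -2.53 (SE 0.42, n = 9 libraries, edgeR adjusted p = 0.000619), and its highest level was 5.13 times its lowest. All 23 alternative fits of the line passed the test, with log2 changes from -3.08 to -2.05. Its correlation with Mmp14 over the 9 days was -0.975, again over points that share their libraries.

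Timp2, which inhibits MMPs and also takes part in the activation of Mmp2 by Mmp14, was the most abundant of the 10 genes from day 8 on. Its level was 548, 779 and 1004 TPM at days 2, 4 and 6, 864, 780 and 901 TPM at days 8, 10 and 12, and 931, 862 and 933 TPM at days 14, 16 and 18. Only day 2 stood below the range of 779 to 1004 TPM that held all other days. The line did not pass the test (log2 change 0.38, SE 0.23, n = 9 libraries, edgeR adjusted p = 0.182). The spline passed it (adjusted p = 0.00655), but without day 2 it did not (adjusted p = 0.855), so the call rests on the day 2 library.

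Timp3, the inhibitor bound to the matrix, was high at the start and at the end of the course. Its level was 609, 301 and 229 TPM at days 2, 4 and 6, 286, 377 and 540 TPM at days 8, 10 and 12, and 666, 723 and 750 TPM at days 14, 16 and 18. The lowest levels thus lay on days 4 to 8, and day 18 stood at 3.28 times day 6 but at 1.23 times day 2. The spline passed the test (edgeR adjusted p = 1.02e-05, n = 9 libraries). The line over all days did not (log2 change 0.87, SE 0.44, adjusted p = 0.1197), whereas without day 2 it did (log2 change 1.96, adjusted p = 0.000454). Correlations of Timp3 with Timp1 and Timp2 over the 9 days were -0.473 and -0.155.

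Timp4 was the rarest inhibitor, with 100 counts in all. It had 4 counts at day 2, 0 at days 4 and 6, 1 at day 8, 10 and 18 at days 10 and 12, and 26, 22 and 19 at days 14, 16 and 18. No day reached 1 TPM, and the highest was day 14 at 0.815 TPM. All days from 10 on were above all days before. The line passed the test (log2 change 4.20, SE 1.44, n = 9 libraries, edgeR adjusted p = 0.0305), although this fitted change depends on how zero counts are handled. The CPM ratio of day 18 to day 2 was 4.52, with a 95% counting interval from 1.50 to 18.3. The call was lost without day 4 (adjusted p = 0.0770), day 14 (0.0534) or day 16 (0.0559).

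Of the TIMP genes, 3 lie within synapsin genes on the opposite strand (NCBIM37 annotation), which matters for counts made without strand. Timp1 (chromosome X, 20447292 to 20451861) lies within Syn1 and Timp4 (chromosome 6, 115195634 to 115201867) within Syn2, and neither shares an exonic base with its host. Timp3 (chromosome 10, 85763117 to 85812251) lies within Syn3 and shares 1733 of its 8144 exonic bases with it. The counts of Timp3 were whole in 0 of 27 profiles, as happens where RSEM shares reads between genes. The counts assigned to Syn3 were between 0.998% and 2.09% of those assigned to Timp3, and the level of Syn3 is uncertain. The remaining genes lie on chromosome 8 (Mmp2, 95351227 to 95377316), 10 (Mmp11, 75385967 to 75400678), 11 (Timp2, 118162383 to 118217054) and 14 (Mmp14, 55050441 to 55060095).

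Summed over the 10 genes, the TIMP level was lower and the MMP level higher at day 18 than at day 2. The 4 TIMPs together stood at 2769, 2592 and 2416 TPM at days 2, 4 and 6, 1709, 1472 and 1784 TPM at days 8, 10 and 12, and 1926, 1960 and 2067 TPM at days 14, 16 and 18. The 6 MMPs together stood at 403, 536, 693, 801, 936, 1046, 1059, 1006 and 1055 TPM on the same days. The ratio of summed TIMP to summed MMP level was therefore 6.88, 3.49, 1.57 and 1.96 at days 2, 6, 10 and 18. Among these 10 genes, TIMP transcripts outnumbered MMP transcripts on every day, with a share of 87.3% of the summed level on day 2, a lowest share of 61.1% on day 10 and 66.2% on day 18. The MMP sum leaves out Mmp16, Mmp23 and Mmp19, at 169, 55.9 and 23.3 TPM on day 10, so the ratio to all MMPs would be lower. These ratios are values with no test.

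The make-up of the summed TIMP level differed between days. Timp1 held 58.2% of the summed TIMP level at day 2, 32.7% at day 8 and 18.5% at day 18. Timp2 held 19.8%, 53.0% (its highest share) and 45.2% at days 2, 10 and 18, and Timp3 held 22.0%, 9.47% (its lowest share) and 36.3% at days 2, 6 and 18. In order of level, the 3 highest genes were Timp1, Timp3 and Timp2 on day 2, and Timp2, Timp3 and Mmp2 on each day from 12 to 18. The full order of the 10 genes was the same on days 12, 14, 16 and 18: Timp2, Timp3, Mmp2, Mmp14, Timp1, Mmp13, Mmp11, Mmp3, Timp4 and Mmp10. Neighbours whose 3 lane values overlapped were Timp3 and Mmp2 on day 4, Mmp14 and Timp3 on days 6 and 8, and Timp3 and Mmp14 on day 10. Among the rare genes the same held for Timp4, Mmp10 and Mmp3 on day 2, Mmp3 and Mmp10 on day 4, and Timp4 and Mmp10 on day 8. The lanes cover sequencing error only, so the order of close neighbours in other cultures is unknown.

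**Figure D2:**
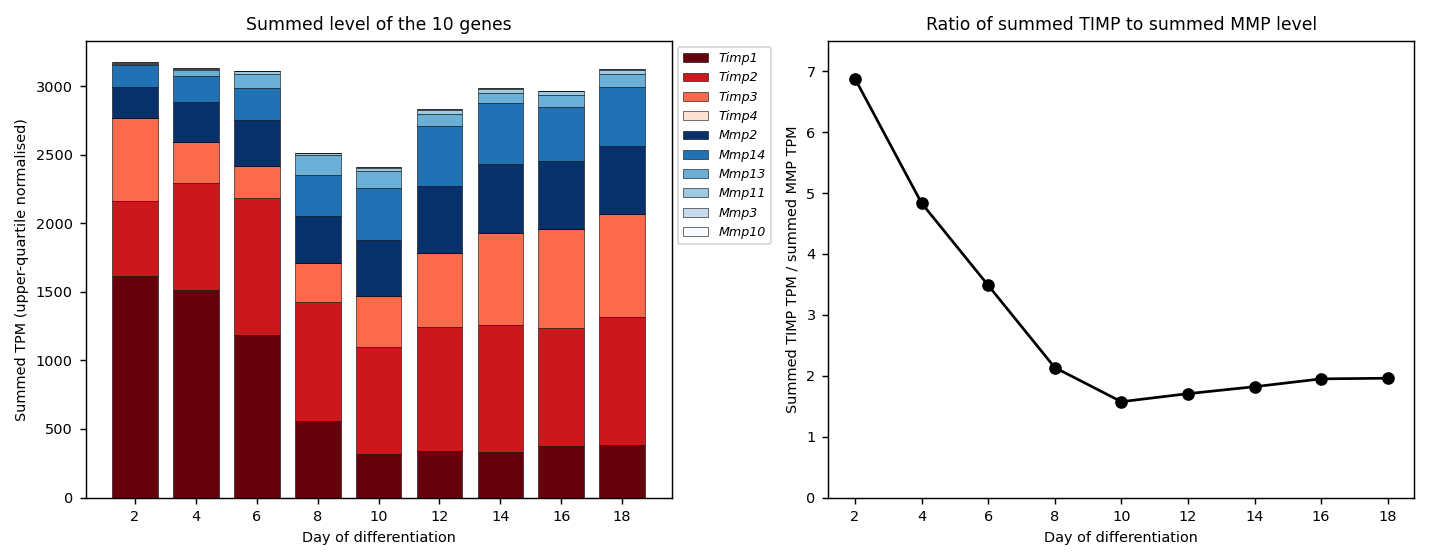
Left, summed TPM of the 10 genes by day of differentiation, stacked with the TIMPs in red below and the MMPs in blue above; right, the ratio of summed TIMP to summed MMP level by day. The Timp1 segment is 1613 TPM on day 2 and 383 TPM on day 18, and the ratio is 6.88 on day 2 and 1.57 at its lowest on day 10.

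Tested as a bend in the curve, the courses were less certain. The squared term of a quadratic in day gives the mean fitted log2 level of days 2 and 18 minus that of day 10. It passed the test as negative, high in the middle, in 3 of 9 genes (Mmp2, Mmp13 and Mmp14), against 7.82% of all genes, and as positive, low in the middle, in 1 of 9 (Timp1), against 4.02%. The term was -2.33 for Mmp13 (SE 0.66, edgeR adjusted p = 0.0452) and 1.04 for Timp1 (SE 0.25, adjusted p = 0.0255). For Mmp2 and Mmp14, whose levels had no clear fall at the end, it was -0.31 and -0.48. For Timp3 it was 0.90 (SE 0.31, adjusted p = 0.0878) and did not pass. The calls depended on single days. Without day 10 none of the 9 genes passed, while the terms were of like size, at -2.36 for Mmp13 (adjusted p = 0.105) and 0.86 for Timp1 (adjusted p = 0.0761), and the calls over all genes were 1008 instead of 1924. Without day 12 or without day 18 a single gene passed. Without day 2 the size itself changed, to -1.07 for Mmp13 (adjusted p = 0.204) and 0.12 for Timp3 (adjusted p = 0.815). Without days 8 and 10 the term of Mmp13 was -2.02 (adjusted p = 0.252).

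Among 17 other MMP genes, the most abundant was the membrane protease Mmp16. Of the 17, 3 had no count in any library (Mmp1a, Mmp7 and Mmp20), 10 had enough counts for the line, and of these 6 were higher later, 1 was lower and 3 did not pass, against 28.3% higher and 26.1% lower over all genes. Mmp16, which like Mmp14 is anchored in the membrane and can activate Mmp2, was at 42.9, 226 and 176 TPM at days 2, 12 and 18 (log2 change 2.22, SE 0.41, edgeR adjusted p = 0.00123). Mmp19 rose from 10.8 to 38.2 TPM (log2 change 1.53) and Mmp23 from 28.6 to 70.0 TPM (log2 change 1.03). Mmp17 fell, with a log2 change of -1.37, at no more than 2.00 TPM. Mmp9, the gelatinase of osteoclasts and other myeloid cells, had 20, 4, 143 and 92 counts at days 2, 8, 12 and 18 (log2 change 3.90, adjusted p = 0.0131). Mmp12, the macrophage elastase, had 6 counts on day 2 and 122 on day 18 (log2 change 3.80, adjusted p = 0.000177). Both are typical of myeloid cells, whose markers summed to 24.1 TPM at day 2 and 2014 TPM at day 18, most of it Lyz2. The part of such cells in Mmp9 and Mmp12 was not tested. Mmp8, the neutrophil collagenase, had 23 counts in all and was not tested, and the neutrophil markers summed to at most 1.44 TPM on any day.

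Of 20 genes that activate or restrain MMPs, 18 were tested in the line, 5 were higher later, 8 were lower and 5 did not pass, against 28.3% higher, a share close to that of the list, and 26.1% lower over all genes, with a median log2 change of -0.55. With a mean of at least 1 TPM, the gene that fell most was Plaur of the plasminogen system, in which the protease plasmin activates the precursors of several MMPs. Plaur, the receptor of the activator urokinase, was at 77.1 TPM on day 2 and 5.34 on day 18 (log2 change -4.30, SE 0.57, edgeR adjusted p = 0.000194), and Plau, urokinase itself, was at 26.4 and 14.1 TPM (log2 change -1.60).

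Among cell surface partners, Cd44, which can dock MMPs at the membrane, was at 807 TPM on day 2 and 73.2 on day 18 (log2 change -4.20, SE 0.41, edgeR adjusted p = 4.68e-05). Lrp1, a receptor that clears MMPs and TIMP complexes, was at 106 and 67.5 TPM (log2 change -1.06). Reck, a membrane-anchored inhibitor of MMPs, rose from 21.9 to 68.9 TPM (log2 change 1.55, SE 0.19, adjusted p = 0.000126), and Bsg, known as an inducer of MMPs, rose from 283 to 687 TPM (log2 change 1.30). Pcolce, which enhances the processing of procollagen, rose from 288 to 1516 TPM (log2 change 2.38), whereas Pcolce2, of the same function, fell from 12.4 to 1.47 TPM (log2 change -3.53, SE 0.74, adjusted p = 0.00235). Furin did not pass the test in the line (log2 change -0.32, adjusted p = 0.0599).

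**Figure D3:**
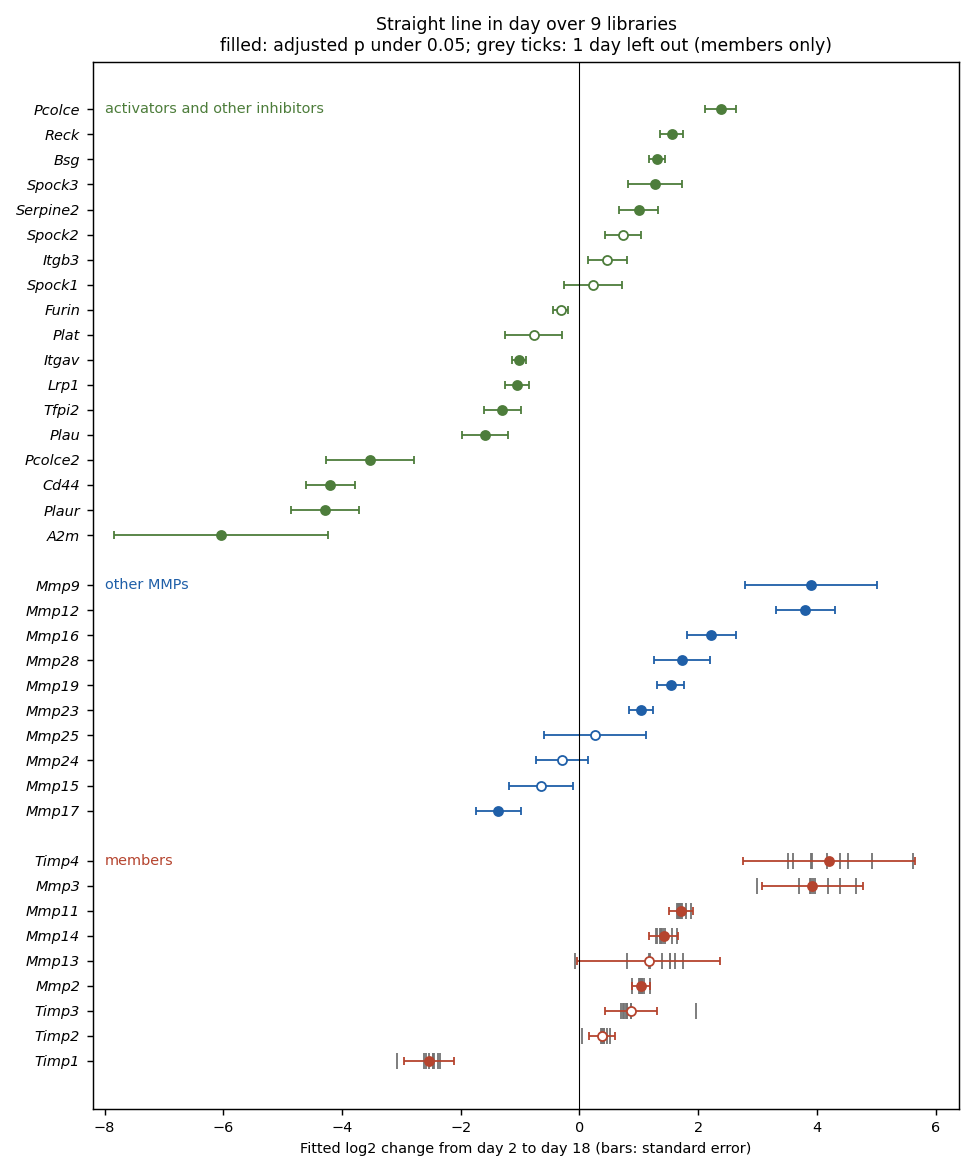
Fitted log2 change from day 2 to day 18 with its standard error (horizontal axis) for the 9 tested genes described here, the other MMPs and the activators and other inhibitors; filled points passed the test, and grey ticks are the fits without 1 day for the 9 genes. Timp1 lies at -2.53 with all its ticks below 0, and Mmp13 at 1.17 has a tick at -0.071.

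Of 19 genes known to regulate MMP genes, 17 were tested in the line, 4 were higher later, 7 were lower and 6 did not pass, against 28.3% higher and 26.1% lower over all genes. Runx2, the osteoblast transcription factor that binds the RUNX motif, was at 46.4 TPM on day 2 and 62.02 on day 18 (log2 change 0.49, SE 0.16, edgeR adjusted p = 0.0232). Among the AP-1 genes, Fosl1 fell from 55.6 TPM at day 2 to 1.17 at day 10 and 2.18 at day 18 (log2 change -6.01, adjusted p = 0.000306), Junb fell from 10.0 to 2.64 TPM and Jun from 28.9 to 14.9 TPM (log2 change -1.44). Fosl2, the most abundant of the listed AP-1 genes on every day, was at 108 TPM on day 2 and 55.6 on day 18 (log2 change -1.07, edgeR adjusted p = 0.00937). Jund rose by a log2 change of 0.79 and Fosb by 1.99, at no more than 1.61 TPM for Fosb. Fos did not pass the test (log2 change -0.71, adjusted p = 0.131). Of the 3 members with the AP-1 heptamer, Mmp3 was highest on day 18, Mmp13 on day 8 and Mmp10 on day 4. For Mmp10 this rests on 13 counts on day 4 beside 7 on day 6. The part of AP-1 proteins in the levels of these members was not tested. Il6, a cytokine known to raise TIMP and MMP genes in several cell types, was at 2.17 TPM on day 2 and 0.408 on day 18 (log2 change -3.66), and Ets2 rose by a log2 change of 0.85.

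**Figure D4:**
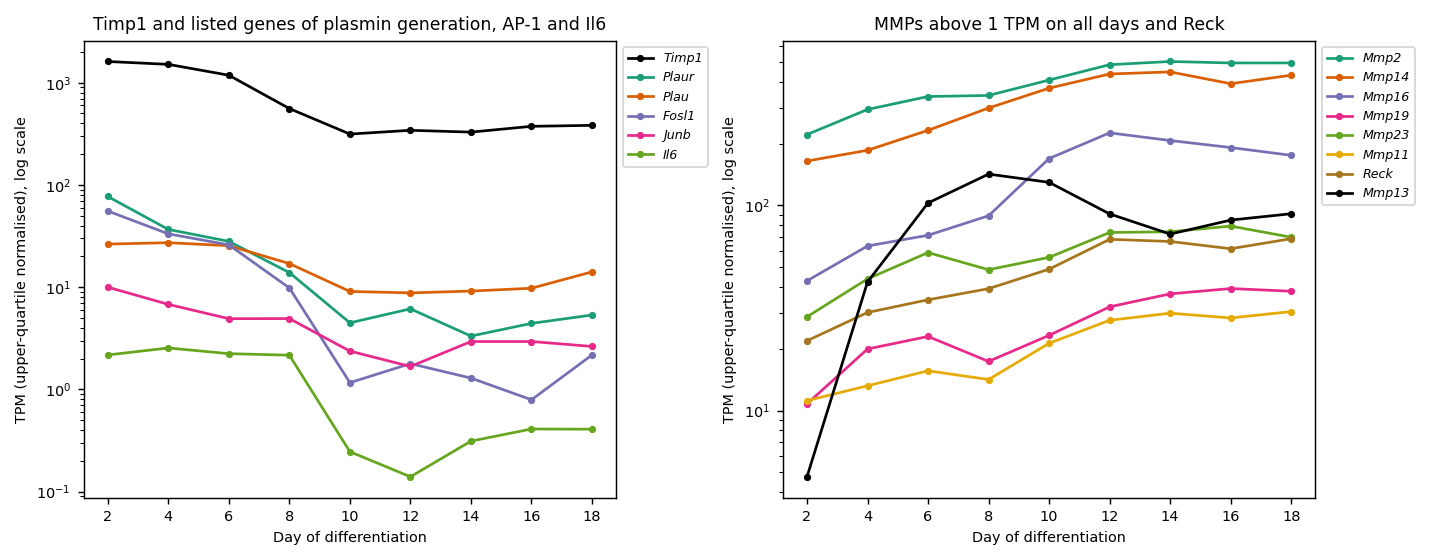
TPM on a log scale against day of differentiation; left, Timp1 beside Plaur, Plau, Fosl1, Junb and Il6; right, the MMPs above 1 TPM on all days and Reck. On the left all 6 genes are lower on day 18 than on day 2, from 77.1 to 5.34 TPM for Plaur and from 1613 to 383 TPM for Timp1. All 6 had passed the line as lower, so their common fall follows from the choice of genes. In the same lists, 5 activators or other inhibitors and 4 regulators were higher later. On the right Mmp13 alone has its highest level on day 8.

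For each of the 10 genes the most similar courses were sought among about 7613 genes with a mean of at least 10 TPM, by Pearson correlation of log2(TPM + 1) over the 9 days. These values describe likeness over 9 points that share their libraries. Mmp2 was most like Scamp5 (0.998), Sdf4 and Psap, and Mmp14 was most like Pmp22 (0.998), Zfp395 and Cdh11, the osteoblast cadherin. Mmp11 was most like St3gal1 (0.997), Nfe2l1 and Rab5b, and Mmp3 was most like Enpp5 (0.993), Hfe and Grn. Timp1 was most like Anxa8 (0.996), Gpatch4 and 2010002N04Rik, and 1106 genes reached a correlation of 0.9 with it. Fewer genes were this close to Mmp13, Timp2 and Timp3, whose lines did not pass the test. For Mmp13, 89 genes reached 0.9, led by Edil3 (0.990), Irgm2 and Il1rn. For Timp2 there were 32, led by Aes (0.990), Baz1b and Osr1, and for Timp3 29, led by Optn (0.991), Itga9 and Psd3. For the rare genes, Mmp10 was most like Pappa (0.961), Pdpn and Rbm45, and Timp4 was most like Tet3 (0.975), Sun1 and Tmem60, on counts too few to read further.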

How the data were processed

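RNA sequencing profiles of calvarial cells at 9 time points, 27 profiles in all, were used. The submitters' processing notes name Bowtie 0.12.9, RSEM 1.2.8 and the build NCBIM37, and the labels state amplification of the complementary DNA before library construction, so strand was not used. Expected counts per gene, as deposited, were RSEM estimates without normalization. The TPM and FPKM deposited by the authors are scaled by effective length and depth. Symbols and positions came from GENCODE on NCBIM37, which matched 37205 of 37991 identifiers.

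The 3 lane profiles of a day were summed and rounded, giving 22470147 to 62009115 counts. TPM of each profile was divided by its upper quartile (75th percentile of nonzero values) and rescaled to the mean quartile of the 27 profiles. Counts were fitted over all genes with edgeR 4.0.16 in R 4.3.3 (quasi-likelihood test, Benjamini-Hochberg adjusted p under 0.05, upper-quartile factors, genes kept by filterByExpr at min.count 10) as a straight line in day and as a natural spline with 3 degrees of freedom. The quadratic term was added after seeing the data. The fits were tested on simulated data, in which the share of false calls was above the threshold of 0.05 for the line, the spline and the quadratic term, so adjusted p-values near the threshold are uncertain. Intervals are exact at the 95% level and, like the 3-count floor, describe counting error alone. Promoters were read from RefSeq windows of GRCm38.p6.

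Named genes were the 10 members, marked genes and at most the 3 largest rises and 3 largest falls past the threshold with a mean of at least 1 TPM in each list, and the 3 courses most like each member. Fosl2, Fosb and the uncounted Mmp1a, Mmp7 and Mmp20 were named in addition. Members and lists were chosen with earlier results of these data known. Alternatives were TMM or no factors, other filters, DESeq2 1.42.0, a robust fit, the 27 profiles with and without the replicate block, each lane and each day left out, early against late days and other curves. The replicate numbers coincide with lanes and do not pair samples. An item of the lists is not reported here.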

Additional observations from a re-analysis of the deposited data

How the results depend on the processing

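Of 697 planned comparisons of a result with an alternative, 670 were kept. That meant the same direction and side of the threshold for a test, or a count of genes within 1.5 times. For a level or the TIMP share it meant a move smaller than the spread over days. Leaving out 1 day cannot move a mean over days by that much, so those comparisons were bound to be kept. The share kept is therefore not a measure of how robust the tests are. The number of genes called among the 10 stayed within 1.5 times in all these alternatives of the line and the spline. The fitted line of Mmp13 turned to -0.071 without day 2. The line of Timp4 was lost without day 4, day 14, day 16 or replicate 3, and its spline without day 4, 6 or 8, without replicate 3 and in curves with fewer terms. The spline of Timp2 was lost without day 2 and in the same simpler curves (adjusted p = 0.0678 for a quadratic and 0.0807 for a spline with 2 degrees of freedom). The cause was not tested.

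With the 27 profiles as separate samples and a replicate block, 5535 genes were higher and 5345 lower, and Timp2 (log2 change 0.37, edgeR adjusted p = 0.0145) and Timp3 (0.86, adjusted p = 0.00546) passed the line. Without the block the counts were 5446 and 5309. These fits treat lanes of 1 library as samples. The replicate numbers did not pair the samples (mean correlation of same-numbered deviations 0.000135, range -0.135 to 0.121). Without scaling factors the median change of all genes was -0.074 instead of 0.051.

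The quadratic term, chosen after seeing the data, depended most on single days. It called 1924 genes and 4 of the 9 members with all days. It called 1008 genes and 0 members without day 10, 1265 and 1 without day 12, 872 and 1 without day 18, and 444 and 0 without days 8 and 10. Without day 2, day 8 or day 16 it called 2 members each. The term of Timp4, which did not pass, turned to 0.11 without day 10 and 0.17 without day 18. Counts limit what can be said of Mmp10 and Timp4, with 26 and 100 in all.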

Other observations

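The ADAM and ADAMTS proteases, which Timp3 also inhibits, were followed as a list of 27 genes. In the line, 25 were tested, 12 were higher later, 4 were lower and 9 did not pass, against 28.3% higher and 26.1% lower over all genes, with a median log2 change of 0.61 beside 0.05 over all genes. The largest rises were in Adamts17, Adamts15 and Adamts18. Adamts17 had 9 counts on day 2 and 1730 on day 18, and was at 0.0575 and 11.4 TPM (log2 change 8.44, SE 0.93, edgeR adjusted p = 7.88e-05). Adamts15, which cuts versican and aggrecan, had 1 count on day 2 and 1030 on day 18, when it was at 6.79 TPM (log2 change 7.99, adjusted p = 1.98e-05). Adamts18 had 19 counts on day 2 and 1010 on day 18 (log2 change 7.11, adjusted p = 3.59e-05). The falls were smaller on the log2 scale. Adam9 was at 98.7 TPM on day 2 and 37.1 on day 18 (log2 change -1.73), Adam19 fell by a log2 change of -1.12, and Adamts14 by -1.88.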
